A study of Mus musculus with 4 samples.

Results

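The MYC network is the set of transcription factors built around MAX, and 8 of its genes were followed here: Myc, Mycn, Max, Mxd1, Mxd3, Mxd4, Mxi1 and Mnt. Members were taken by name, as every non-control probe that the scanner files assign to 1 of these 8 genes, which gave 10 probes. The array held probes under 31896 gene labels in all, some of them transcript identifiers without a gene symbol. Of these labels, counted as genes below, 22014 were bright enough to be tested, and 7 of the 8 members were among them. Where a gene had several probes, each was examined, and the brightest over the 4 arrays stood for the gene.

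The samples were cultured tumour cells from MMTV-Neu mice, in which a viral promoter active in the mammary epithelium drives the Neu oncogene (the rodent Her2, gene Erbb2). Both groups carried that transgene, and they differed in Pak1, a kinase that signals downstream of Rac and Cdc42: 2 samples were labelled Pak1-/- and 2 were labelled Pak1+/+. All were grown in low calcium medium with 5% horse serum, kept without serum for 3 h and given EGF for 15 min before RNA was taken. The design states that each group came from 2 tumours and that the work was done in duplicate, but no label ties a sample to a tumour, so the p-values measure only the spread between these samples, which may be technical. The age of the mice was not given in the sources used here.

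MYC and its relative MYCN cannot bind DNA alone. They pair with MAX, and the pair binds the E-box, whose usual letters are CACGTG, and activates genes for ribosome production, metabolism and growth. The MXD proteins, MXI1 and MNT also pair with MAX, bind the same element and recruit repressors, so that the members compete for MAX and for shared sites. Some of the repressors can also pair with MLX, a relative of MAX. The comparison asked which members differed in level between cells labelled Pak1-/- and Pak1+/+, and how the genes known as targets of the network stood in the same arrays.

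Because the network acts through the E-box, the RefSeq promoter windows of the GRCm38.p6 assembly were searched for CACGTG, which reads the same on both strands. A window ran from 250 bases before to 50 after a gene's start. The motif was present in at least 1 window of 8.09% of the 27025 genes that had one. Of the 8 members, all but Myc had a window in the table, and 3 of those 7 held the motif: Max, Mxd4 and Mnt. Myc was not searched. Those 3 are shown here with Nop2, a nucleolar RNA methyltransferase, and Ldha, lactate dehydrogenase A, as target genes with the motif. Each line is read 5′ to 3′ on the gene's own strand, with the E-box in capitals and 20 bases on either side.
Max, chr12:76962226-76962271, minus strand: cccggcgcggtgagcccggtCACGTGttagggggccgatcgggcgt
Mxd4, chr5:34187904-34187949, minus strand: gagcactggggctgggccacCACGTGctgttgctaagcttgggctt
Mnt, chr11:74830781-74830826, plus strand: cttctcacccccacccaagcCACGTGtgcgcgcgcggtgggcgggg
Nop2, chr6:125131803-125131848, plus strand: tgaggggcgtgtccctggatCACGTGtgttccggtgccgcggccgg
Ldha, chr7:46845639-46845684, plus strand: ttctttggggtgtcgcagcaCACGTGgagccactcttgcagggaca
Ldha, chr7:46845736-46845781, plus strand: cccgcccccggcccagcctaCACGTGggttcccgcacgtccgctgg
The motif began 3 bases before the annotated start of Max, 123 before that of Mnt and 219 before that of Mxd4. Ldha held it at 145 and 48 bases before its start, and Nop2 at 60. A match of letters is a description of the sequence and not a measured binding site.

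The 4 arrays were alike in brightness, with median spot intensities of 322 to 331 on the linear scale and 62.2% to 70.4% of probes well above background. All levels below are normalized log2 intensities, and every difference is the mean of the arrays labelled Pak1-/- minus that of the arrays labelled Pak1+/+. The Pak1 probe did not separate the groups in the direction of the labels: its levels were 12.21 and 12.25 in the arrays labelled Pak1-/- and 12.04 in both of the others (limma, adjusted p = 0.0700), and under cyclic loess scaling the difference of 0.27 passed the threshold as higher (adjusted p = 0.0266, range over 13 alternatives 0.0266 to 0.235). Whether that probe lies in the deleted part is not given in the sources used here, and the groups are therefore called by their labels. All arrays shared 1 slide, where those labelled Pak1-/- took places 1 and 2 and the others 3 and 4, and the place on the slide and the genotype cannot be told apart. Over all probes tested, 51.9% were past the threshold of an adjusted p of 0.05, and over genes 28.2% were lower under the Pak1-/- label and 22.8% were higher. The counts of members, and of every list below, are to be read against these shares. Their balance turned with the scaling: of the probes called, 44.9% were higher in the main fit and 52.4% under cyclic loess.

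Of the 7 members tested, 4 were lower in the arrays labelled Pak1-/- (Myc, Mycn, Mxd1 and Max), 1 was higher (Mxd4), and Mxd3 and Mnt were not past the threshold. The median difference over the 7 was −0.39 on the log2 scale, beside −0.05 over all genes tested. In 6 of the 7 the groups were apart with no overlap, as they were in 78.2% of all probes tested.

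Myc itself showed the largest difference of the 7. This gene encodes the network's best known activator. Its probe lies at chr15:61821417-61821476 on the plus strand of mm9, the build of the files' coordinates. The normalized log2 level was 12.95 and 12.79 in the arrays labelled Pak1-/- and 14.12 and 14.02 in those labelled Pak1+/+. Before normalization the same spots had linear intensities of 7474 and 7322 against 18328 and 16427. Both arrays labelled Pak1-/- lay well below both others. The group means were 12.87 ± 0.11 and 14.07 ± 0.06 (SD, n = 2 each), a difference of −1.20 (SE 0.09, 95% interval −1.44 to −0.96), or a level 2.30-fold higher under the Pak1+/+ label (limma, adjusted p = 0.000894). Some 90.8% of the genes tested had a smaller change in either direction. In bulk RNA a smaller share of cells with the transcript and less of it per cell cannot be told apart.

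Mycn, the paralogue known from neural and embryonic tissues, moved the same way. Its levels were 11.26 and 11.20 in the arrays labelled Pak1-/- against 12.11 and 12.08, with the groups far apart and the pairs close together. The difference was −0.86 (SE 0.07, 95% interval −1.05 to −0.68), a 1.82-fold lower level under the Pak1-/- label (limma, adjusted p = 0.00107), and 83.2% of genes changed less. The probe lies at chr12:12943193-12943252 on the minus strand of mm9.

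Max, the partner that MYC and MYCN need to bind DNA, was bright on all arrays and differed little. Its levels were 13.97 and 13.94 in the arrays labelled Pak1-/- and 14.19 and 14.28 in the others. The groups did not overlap, but the difference of −0.28 (SE 0.07, 95% interval −0.47 to −0.09) was a 1.21-fold change that passed the threshold narrowly (limma, adjusted p = 0.0303). Leaving out an array leaves its group with 1 sample, which is then assumed to vary like the other group, here and wherever an array is left out below. With any 1 of the 4 arrays left out Max did not pass: the value was −0.30 without Pak1-/- replicate 1, −0.27 without Pak1-/- replicate 2, −0.32 without Pak1+/+ replicate 1 and −0.23 without Pak1+/+ replicate 2, with adjusted p from 0.0708 to 0.168. With the replicate number as a block it was −0.28 with an adjusted p of 0.0605, and the call held in 6 of 13 alternative settings.

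**Figure D1:**
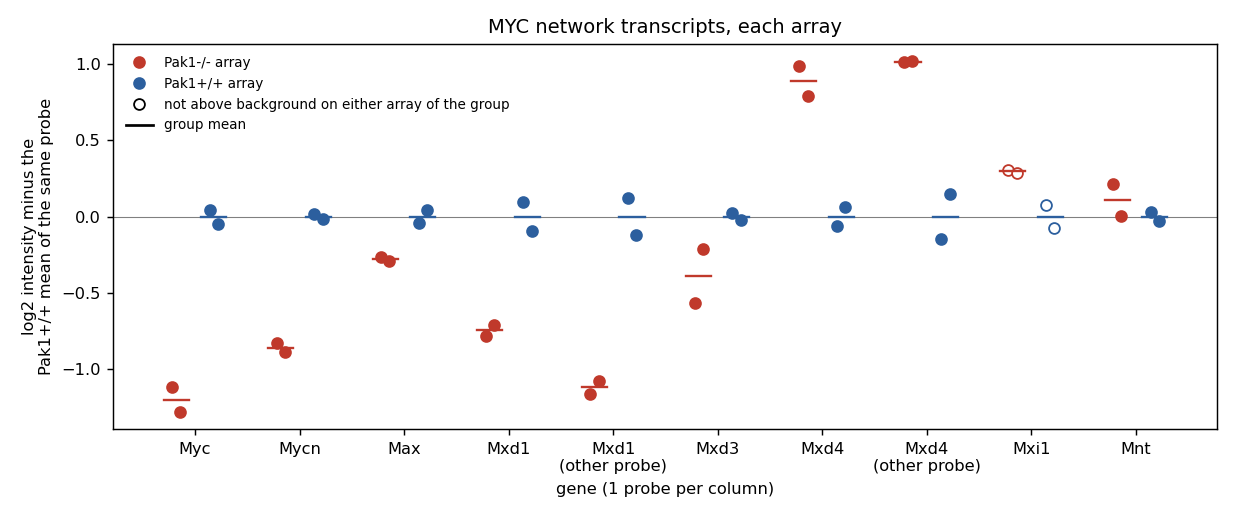
Normalized log2 intensity minus the Pak1+/+ mean of the same probe (vertical axis), for every MYC network member probe on the 4 arrays. The other probes of Mxd1 and Mxd4 are included. Points are arrays and bars the mean of each group (n = 2). Myc, Mycn, Max, Mxd1 and Mxd3 lie lower in both arrays labelled Pak1-/-, Mxd4 lies higher in both, the points of Mnt overlap, and every Mxi1 point was too dim to stand well above background.

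The repressors that pair with MAX did not move together. Mxd1, the founding MXD repressor, which is known to be induced as cells stop dividing and differentiate, was lower. Its brightest probe (mm9 chr6:86599053-86599112, minus strand) read 11.15 and 11.22 in the arrays labelled Pak1-/- and 12.03 and 11.84 in the others. The difference was −0.75 (SE 0.09, 95% interval −0.997 to −0.499; limma, adjusted p = 0.00351), or 1.68-fold. A separate Mxd1 probe, which starts 1863 bases away and shares no base with it, read 10.61 and 10.69 against 11.89 and 11.66. Its difference was −1.12 (SE 0.11; limma, adjusted p = 0.00159), so both places in the transcript gave a lower level.

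Mxd4, an MXD repressor of the same family, was the single member that was higher. Its brightest probe (mm9 chr5:34519323-34519382, minus strand) read 12.39 and 12.19 in the arrays labelled Pak1-/- and 11.34 and 11.47 in those labelled Pak1+/+. The difference was 0.89 (SE 0.10, 95% interval 0.62 to 1.16), 1.85-fold higher under the Pak1-/- label (limma, adjusted p = 0.00273). The other Mxd4 probe read 10.47 and 10.48 against 9.31 and 9.61, a difference of 1.02 (SE 0.12; limma, adjusted p = 0.00274). These probes share 13 of their 60 bases and are not independent measurements of the transcript.

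Mxd3, an MXD member known for its expression in cycling cells, did not pass. Its levels were 10.59 and 10.94 in the arrays labelled Pak1-/- and 11.18 and 11.13 in the others, so that the groups did not overlap but the first pair was spread widely (SD 0.25). The difference of −0.39 (SE 0.14) had a 95% interval, not adjusted for the number of probes, of −0.75 to −0.03 (limma, adjusted p = 0.0682). Without Pak1-/- replicate 2 the value was −0.56 and passed (adjusted p = 0.0168), without Pak1-/- replicate 1 it was −0.21 (adjusted p = 0.112), and over 13 alternatives it was past the threshold in 1, with adjusted p from 0.0168 to 0.167.

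Mnt, a repressor that is made in resting and dividing cells alike, read 14.19 and 13.99 in the arrays labelled Pak1-/- and 14.01 and 13.95 in the others. The groups overlapped, and the difference was 0.11 (SE 0.10, 95% interval −0.15 to 0.37; limma, adjusted p = 0.391). The interval leaves room for a small change either way. Mxi1, a repressor also known as MXD2, could not be tested. Its probe read 6.60 and 6.58 against 6.37 and 6.22 and was not well above background on any of the 4 arrays, so no fold is given. A probe listed under another name, though its description names Mxi1, lies on the opposite strand and was not counted as a member. That probe differed by −0.23 (limma, adjusted p = 0.447).

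**Figure D2:**
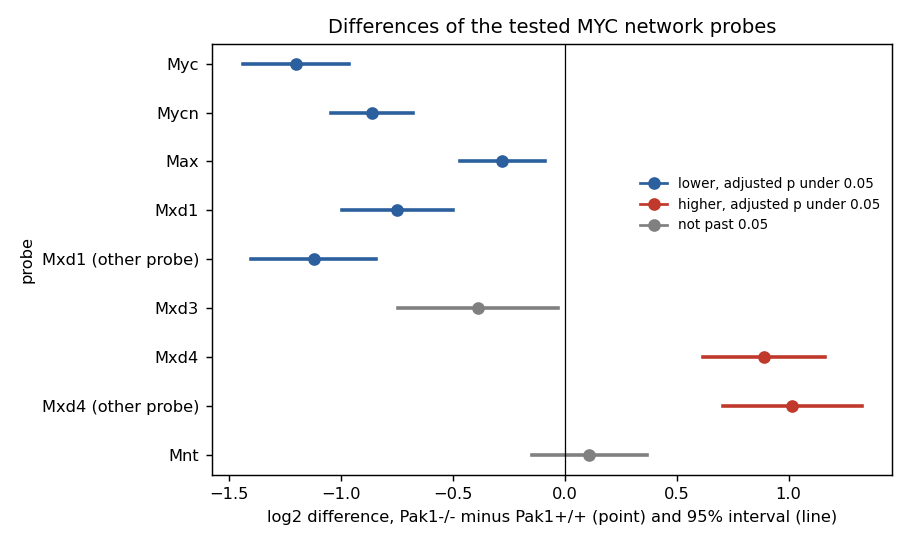
Difference in normalized log2 intensity (arrays labelled Pak1-/- minus those labelled Pak1+/+, horizontal axis) for the 9 member probes tested, with 95% intervals from the limma fit, not adjusted for the number of probes. The probes of Myc, Mycn and Mxd1 lie to the left of 0, both probes of Mxd4 to the right, and the interval of Mnt crosses 0.

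The extended network holds the factors that share MAX or its relative MLX. Among them was Mlxipl, which encodes ChREBP, a glucose-responsive partner of MLX. Mlxipl read 8.65 and 8.68 in the arrays labelled Pak1-/- and 12.16 and 12.06 in the others, a difference of −3.45 (SE 0.07; limma, adjusted p = 6.2e-05). Mycl, the remaining MYC paralogue, moved the opposite way from Myc and Mycn. It read 8.64 and 8.54 under the Pak1-/- label, while both arrays labelled Pak1+/+, at 6.36 and 6.44, were not well above background. Mycl was therefore raised at least 3.30-fold under the Pak1-/- label. Its probe was bright enough to be tested only through the arrays labelled Pak1-/-, so no p-value is given.

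The other relatives were not past the threshold. The difference was −0.18 for Mga, a MAX partner of the T-box family (limma, adjusted p = 0.169), and −0.11 for Mlx (adjusted p = 0.292). For Mlxip, which encodes MondoA, it was 0.27 (adjusted p = 0.125), and this passed in 1 of 13 alternatives, at 0.42 without Pak1+/+ replicate 1 (adjusted p = 0.0388), while without Pak1+/+ replicate 2 it was 0.12 (adjusted p = 0.449). Txnip and Arrdc4, arrestin-like genes known as targets of MondoA and ChREBP, were both higher in the arrays labelled Pak1-/-, by 0.59 (adjusted p = 0.00416) and 0.48 (adjusted p = 0.0132). The Arrdc4 call was lost without Pak1-/- replicate 1 (0.44, adjusted p = 0.0607) and without Pak1+/+ replicate 1 (0.39, adjusted p = 0.0561). A dimmer Arrdc4 probe was higher by 1.20 (adjusted p = 0.00057), and the mean over both probes was 0.84 (adjusted p = 0.0018). Next to Myc on its chromosome, the noncoding gene Pvt1 differed by −0.09 (adjusted p = 0.304) and Lratd2 by −0.09 (adjusted p = 0.337), neither past the threshold.

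**Figure D3:**
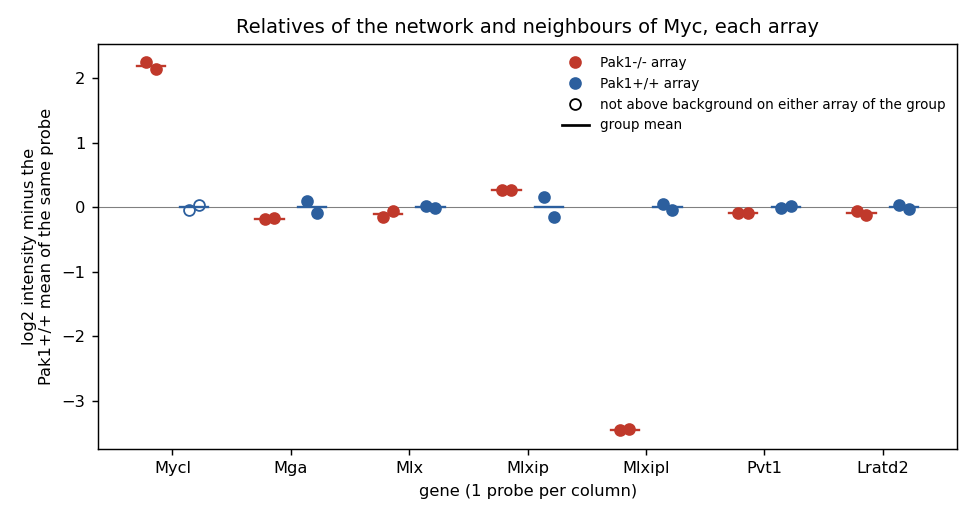
Normalized log2 intensity minus the Pak1+/+ mean of the same probe (vertical axis), for the 5 relatives of the network and the 2 genes beside Myc. Points are arrays and bars the mean of each group (n = 2). Open points were not well above background on either array of the group. Mlxipl lies far lower and Mycl higher in the arrays labelled Pak1-/-, while the other genes differ little.

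Among cofactors of the network, a list that joins coactivators of MYC with corepressors used by the MXD proteins, 17 of 18 genes were tested, and 4 were higher, 6 lower and 7 not past the threshold, with a median difference of −0.07, counts near the shares over all genes (28.2% lower and 22.8% higher). Hdac1, a histone deacetylase recruited by the MXD repressors, was higher by 1.06 (limma, adjusted p = 0.000601), and Cdk9, the kinase that releases paused polymerase, by 0.59 (adjusted p = 0.0036). Ruvbl1, an ATPase of chromatin complexes that MYC recruits, fell by 0.69 (adjusted p = 0.00191), and its partner Ruvbl2 fell by 0.43 (adjusted p = 0.00842). The Ruvbl2 call was lost without Pak1+/+ replicate 2 (adjusted p = 0.0506). Fewer genes of this list were lower with any 1 array left out, and fewer were higher without Pak1+/+ replicate 1. At an adjusted p under 0.01 the list had 3 genes lower and 2 higher.

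MYC protein is short lived, and the genes that set its turnover were read next. Of 13 tested, 3 were higher, 6 lower and 4 not past the threshold, with a median of −0.33, where 22.8% of all genes were higher and 28.2% lower. Fbxo32, an F-box protein known to target MYC for degradation, was higher by 1.37 (limma, adjusted p = 0.000815). Gsk3b, the kinase that marks MYC for the ubiquitin ligase FBXW7, was higher by 0.97 (adjusted p = 0.00568). Skp2, an F-box protein that both ubiquitinates MYC and serves as its cofactor, fell by 0.52 (adjusted p = 0.00606). Aurka, a kinase that stabilizes MYCN, fell by 0.50 (adjusted p = 0.0324), with differences of −0.67 to −0.33 over 13 alternatives. The call was lost in 4 of the 13, among them without Pak1+/+ replicate 1 and without Pak1+/+ replicate 2. Fewer genes of this list were lower without either of those arrays, and at an adjusted p under 0.01 the number lower was 2. The arrays measured RNA, and no MYC protein was measured.

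The nucleolar and ribosome production genes, a well known class of MYC targets, were lower almost throughout. Of 29 listed genes, all were tested, 28 were lower in the arrays labelled Pak1-/- and none was higher, with a median difference of −0.80 beside −0.05 over all genes tested and a background of 28.2% lower. Dkc1, the pseudouridine synthase dyskerin, read 10.45 and 10.48 in the arrays labelled Pak1-/- and 11.75 and 11.92 in the others, a difference of −1.37 (limma, adjusted p = 0.000573). Rcl1, a factor of 18S rRNA processing, fell by 1.16 (adjusted p = 0.000547). Ncl and Npm1, the abundant nucleolar proteins nucleolin and nucleophosmin, and Bop1 and Nop2 were chosen after their values were seen. Ncl fell by 0.74 and Npm1 by 0.71. Nop2, whose E-box is printed above, fell by 1.03. Bop1 was the exception, at −0.08 (adjusted p = 0.390). Of the 23 genes of this list with a promoter window, 6 held the E-box, or 26.1% beside 8.09% of all genes, given as a description.

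The metabolic and growth targets went largely the same way. Of 23 tested, 18 were lower, 1 higher and 4 not past the threshold, with a median of −0.70. The shares over all genes were 28.2% lower and 22.8% higher. Hk2, the hexokinase of glycolysis, read 10.68 and 10.67 in the arrays labelled Pak1-/- and 12.27 and 12.23 in the others, a difference of −1.58 (limma, adjusted p = 0.000225). Shmt1, a serine hydroxymethyltransferase, fell by 1.57 (adjusted p = 0.000439). Ldha and Odc1, the latter the first enzyme of polyamine synthesis, both chosen after their values were seen, fell by 1.00 and 0.83. Tert, the catalytic subunit of telomerase, was the 1 gene of the list that was higher, by 1.23 (adjusted p = 0.000706). The E-box was present in 9 of the 22 genes with a window (40.9%), beside 8.09% of all genes, given as a description.

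Genes that MYC is known to repress moved in both directions. Of 11 tested, 5 were higher, 3 lower and 3 not past the threshold, with a median of 0.24. Over all genes, 22.8% were higher and 28.2% lower. Ndrg1, a gene induced in differentiation and low oxygen, was higher by 2.71 (limma, adjusted p = 0.000135), and Ndrg2 was at least 1.52-fold higher, since both arrays labelled Pak1+/+ were not well above background. Against that direction, Cebpa, a factor of differentiation, fell by 2.26 (adjusted p = 0.000785). Cdkn2b, which encodes the cell cycle inhibitor p15, read 13.11 and 13.28 in the arrays labelled Pak1+/+ and was not well above background in either array labelled Pak1-/-, a level at least 95.5-fold lower. The number lower was 1 without Pak1+/+ replicate 1 and 1 without Pak1+/+ replicate 2, in part because Cdkn2b was then bright on 1 array and was no longer tested. It passed in each of the 10 alternatives that tested it, all of which kept both arrays labelled Pak1+/+. Cdkn2b was bright enough to be tested only through those arrays, so this does not measure stability.

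Proliferation genes differed between the groups as well, and they are given here because many respond to growth whatever its source. Under the Pak1-/- label, 18 of the 20 tested were lower and none was higher, with a median of −0.87, where 28.2% of all genes were lower. Rrm2, a subunit of ribonucleotide reductase, fell by 1.84 (limma, adjusted p = 0.000401) and Foxm1, a factor of mitotic genes, by 1.32 (adjusted p = 0.000431). The linear intensities of the list summed to 419000 and 447000 in the arrays labelled Pak1-/- and to 824000 and 787000 in the others. The E-box was present in 1 of 17 genes with a window (5.88%). The part of proliferation in the members' differences was not tested.

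**Figure D4:**
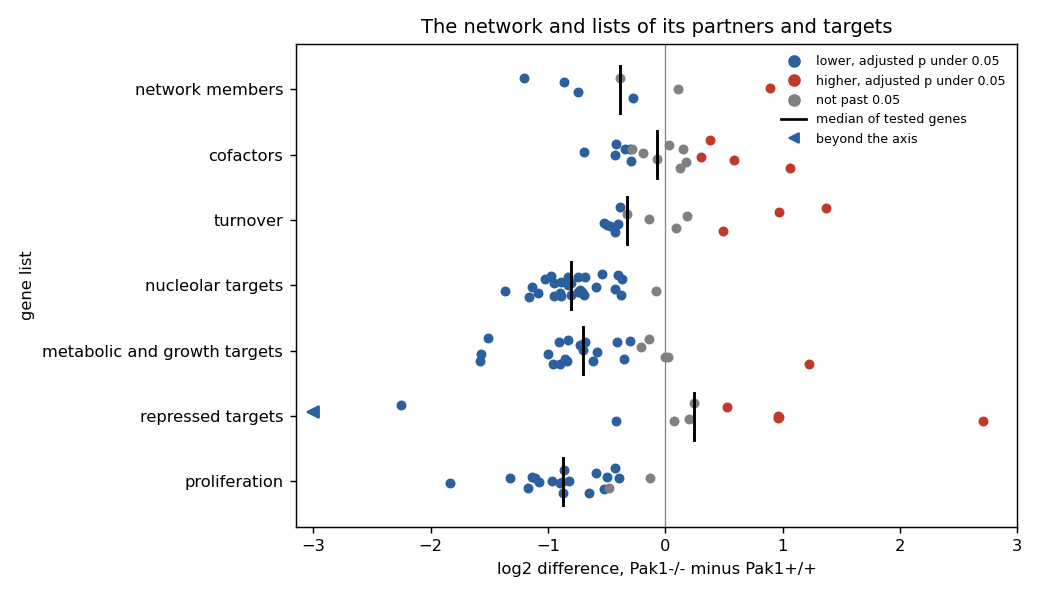
Difference in normalized log2 intensity (arrays labelled Pak1-/- minus those labelled Pak1+/+, horizontal axis) of each gene tested in the MYC network and in the lists described beside it, 1 point per gene with a line at each list's median. All 29 nucleolar targets lie to the left of 0 (28 past the threshold as lower, median −0.80), and Cdkn2b, drawn as a triangle, lies beyond the axis.

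Markers of cell types were read in the same fit. All 6 epithelial markers were well above background on every array, and 5 were higher under the Pak1-/- label, among them Krt14, a basal keratin, at 2.83 (limma, adjusted p = 7.7e-05) and Cdh1, E-cadherin, at 1.19 (adjusted p = 0.00118). Their linear intensities summed to 1010000 and 993000 in those arrays and to 731000 and 728000 in the others. Of 8 fibroblast markers, 4 (Lum, Dcn, Pdgfrb and Col3a1) did not rise well above background on even 1 array, and 1 of the 3 tested was higher, Col1a1 by 1.12 (adjusted p = 0.00512), with sums of 1560 and 1370 against 1250 and 1210. Of 6 leukocyte markers tested of 8, 2 were lower, Adgre1 by −1.05 (adjusted p = 0.00109) and Ptprc by −0.45 (adjusted p = 0.00559), while the list's sums of 75000 and 52300 against 48200 and 43700 ran the other way. Those sums came mostly from Itgam, an integrin of myeloid cells, chosen after its values were seen, which read 16.07 and 15.51 against 15.39 and 15.20 and was not past the threshold (adjusted p = 0.110). None of the 3 endothelial markers tested of 4 was past the threshold by its brightest probe, and those probes summed to 10300 and 9920 against 8990 and 10800. A dimmer probe of Kdr, a VEGF receptor, read 8.05 and 7.92 in the arrays labelled Pak1-/- and was not well above background in the others. That is a level at least 2.17-fold higher. No p-value is given, since the probe was bright enough to be tested only through the arrays labelled Pak1-/-. The part of the epithelial and leukocyte markers in the members' differences was not tested.

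The transgene's own gene was read as a check of the model. Erbb2 read 11.91 and 11.95 in the arrays labelled Pak1-/- and 12.26 and 12.21 in the others, a difference of −0.31 (limma, adjusted p = 0.0202). The call was lost without Pak1-/- replicate 1 (adjusted p = 0.0631), without Pak1+/+ replicate 1 (adjusted p = 0.108) and without Pak1+/+ replicate 2 (adjusted p = 0.0773). Whether the probe reads the rat Neu transgene or only the mouse gene was not tested.

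The genes whose pattern lay nearest to that of Myc were found by the root mean square difference of centred log2 levels over the 4 arrays, among 19142 genes well above background on all of them. Timeless, a replication fork protein, was nearest at 0.0125 (difference −1.22), followed by Dock4, an exchange factor for Rac, at 0.0181 (difference −1.19), and Fam136a at 0.0213 (difference −1.21). Of all these genes, 0.925% lay within 0.1 of Myc.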

How the data were processed

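RNA from 4 mouse samples was hybridised to single-colour (Cy3) Agilent arrays with 60-base probes. Per the file headers, the authors deposited linear spot intensities from Feature Extraction 9.5.3.1, not normalized between arrays, with flags for spots above background, saturated or outlying. They also deposited a table of log2 values (normexp and quantile by their methods), filled in 24008 of 39485 rows and used as an alternative. All its columns had a median of 10.37, its lowest r across probes with the values used here was 0.9998, and its offset was not stated.

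Here the mean spot intensity was background corrected with normexp (offset 50) in limma 3.58.1 (R 4.3.3), control spots were left out, the log2 values were quantile normalized, and spots of each of 39429 probes were averaged. The 27229 probes (69.1%) that rose well above background on 2 or more of the 4 arrays were tested with lmFit and eBayes (genotype as the only term, two-sided, Benjamini-Hochberg over all of them, threshold 0.05), and 14132 passed. A probe dim on both arrays of a group gave only a bound ("at least"): the bright group's mean was set against the dim group's, where each array entered at the probe's value or at that of its faintest clearly detected probe, whichever was higher. The offset and filter were set here, and the offset understates changes of dim probes. Sums over lists are of normalized intensities on the linear scale. An exact permutation test of 2 against 2 cannot go below 0.333. The number of arrays limits the precision.

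Groups came from the labelled genotypes. Probes kept the file's names or took the RefSeq symbol of their accession (GRCm38.p6, 26055 probes matched); probe coordinates are mm9. Members and lists were chosen with earlier results of these data known, so no test was made over a list. Named genes were every member probe, relative and neighbour, the 2 largest increases and decreases past the threshold in each other list, the 3 genes nearest Myc, Pak1 and Erbb2. Ncl, Npm1, Nop2, Bop1, Ldha, Odc1, Itgam, the dimmer Kdr probe, the probe described as Mxi1, and markers at background, are named outside this rule. Alternatives were another offset, scaling or filter, the deposited values, the mean over a gene's probes, a replicate block, a stricter threshold and each array left out. Human samples of the study were not analysed here.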

Additional observations from a re-analysis of the deposited data

How the results depend on the processing

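Over 13 alternatives, Myc, Mycn, Mxd1 and Mxd4 kept their direction and stayed past the threshold in each, with log2 differences of −1.29 to −1.11, −0.90 to −0.79, −0.94 to −0.65 and 0.79 to 0.99, and Mnt stayed short of it (0.0061 to 0.22). None of the 7 members tested changed direction, and Mxi1 was not tested. Max was past the threshold in 6 of 13: it was −0.18 under cyclic loess (adjusted p = 0.112), −0.28 with no filter on dim probes (adjusted p = 0.0540), −0.28 with the replicate block (adjusted p = 0.0605) and −0.32 to −0.23 with 1 array left out. Mxd3 was −0.56 to −0.21 with 1 array left out, and past it only without Pak1-/- replicate 2. The cause was not tested, and a group left with 1 sample takes its spread from the other group. Of 91 values, 1 for each of the 7 members tested under each of 13 alternatives, 83 kept their side of the threshold, 7 lost it and 1 gained it. At an adjusted p of 0.01 the number of probes called was 8878 in place of 14132. The replicate numbers do not pair samples by any label, and the deviations of same-numbered samples correlated at −0.028 over 27215 probes. With 2 samples a group, differences near the size of that of Max are at the limit of what these arrays separate. The member probe of Mxi1, near background, has no measured difference.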
